A study of Mus musculus with 4 samples.

Results

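Glutamine and the branched-chain amino acids leucine, isoleucine and valine can feed carbon into mitochondria, and 9 genes of their use were followed in sorted mouse blood-forming cells with and without a deletion that targets Cpt1a. CPT1A couples long-chain fatty acids to carnitine at the outer mitochondrial membrane, the step that admits them to the organelle for oxidation. The genes were listed by role and then found by symbol among 55401 gene models: the carriers Slc1a5, Slc7a5 and Slc38a2, the glutamate dehydrogenase gene Glud1, the aminotransferase genes Got1, Got2 and Gpt2, and the branched-chain aminotransferase genes Bcat1 and Bcat2. The question was whether genes of this other carbon source differed between Control and KO cells.

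In cells, glutamine enters through sodium-coupled carriers and is turned into glutamate. Glutamate then gives its carbon skeleton to the tricarboxylic acid cycle, either through glutamate dehydrogenase or by passing its amino group on in an aminotransferase reaction. Branched-chain amino acids first lose their amino group to α-ketoglutarate through BCAT1 in the cytosol or BCAT2 in mitochondria, and the keto acids left are oxidised in mitochondria.

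RNA-seq was made from bone marrow cells that the labels call ltHSC, or long-term hematopoietic stem cells, while the study's text speaks of stem and progenitor cells. Control mice, labelled WT, carried floxed alleles (Cpt1a fl/fl), and KO mice, labelled Cpt1a-KO, also carried Vav1-Cre, which is active throughout the blood system, so that the deletion was not limited to stem cells. Per the study's methods all mice were on a C57BL/6 background. There were 2 Control and 2 KO libraries, and no label ties a replicate to an animal of its own. The p-values hence reflect only how far these 4 libraries spread, and part of that may be technical. The methods give adult mice of both sexes as the rule and name no other age for these libraries.

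The libraries held 20589218 to 34083159 estimated counts, and the KO libraries were the deeper ones. Cpt1a had 37.0 and 35.6 TPM in Control replicates 1 and 2 and 11.5 and 19.2 TPM in KO replicates 1 and 2 (TPM is transcript abundance per length, scaled to one sum in every library). Its log2 fold change of KO over Control, written log2FC from here on, was -1.60 (SE 0.152, adjusted p = 0.00695). The stem cell marker list had a summed 1301 and 1459 TPM in Control and 1593 and 1626 TPM in KO (1 of 14 called higher, Cd48). Its genes differed widely in level. Kit and Hlf were at 73.0 TPM or more in every library, whereas Slamf1 was at 2.88 to 4.83 TPM and Hoxb5 at 0 to 1.12 TPM. Cd48, which the usual gate for long-term stem cells selects against, was at 80.3 to 160 TPM. The neutrophil precursor gene Mpo was at 1639 to 2959 TPM. The cells are therefore called sorted cells here. Markers of several other lineages moved with the genotype, while those of monocytes and dendritic cells overlapped between the groups. The summed TPM of that list was 469 and 368 in Control and 390 and 350 in KO (0 of 7 called). Summed over the marker list, erythroid genes had 1491 to 1556 TPM in Control and 606 to 723 TPM in KO (7 of 14 tested lower), neutrophil genes 8152 to 11858 and 6355 to 6531 TPM (1 of 10 lower), B lineage genes 345 to 480 and 992 to 1238 TPM (10 of 12 higher) and mast cell genes 42.2 to 87.6 and 357 to 440 TPM (4 of 7 higher). Proliferation genes had 1879.9 to 2249 TPM over all libraries (0 of 10 called), and immediate early genes stood apart in Control replicate 2, at 6188 TPM against 352 to 540 TPM in the other libraries. The T and NK cell list had a summed 201 and 212 TPM in Control and 167 and 160 TPM in KO. Most of this sum was Nkg7, at 192 and 206 TPM in Control and 152 and 141 TPM in KO, which was not called. Of the 7 genes of this list 6 were detected, and 1 of 4 tested was called higher (Tcf7). The T cell gene Cd3e and the late erythroid gene Alas2 were listed at 0 in all 4 libraries, although 14 of the 15 erythroid genes were detected.

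Of the 9 genes, Bcat1 alone passed the test as higher in KO, and none passed as lower. Calls were made at an adjusted p below 0.05 in edgeR's quasi-likelihood test on counts, with Benjamini-Hochberg adjustment over the 14635 genes tested. Over all genes tested, 66 (0.451%) were called higher and 31 (0.212%) lower. Each of the 9 genes passed the filter on low counts, and Bcat1, the least abundant in Control, lay above its bar of 0.35 CPM (counts scaled to one library sum) in all 4 libraries. The other 8 genes had log2FC values between -0.52 and 0.21, and their adjusted p ran from 0.369 to 0.917. At an unadjusted p under 0.05, Bcat1 was higher and Bcat2 lower, beside 5.81% and 4.61% of all genes. DESeq2 called Bcat1 higher and Bcat2 lower, but it called far more genes than edgeR, 628 higher and 519 lower of the 14635. Limma called neither of the 2, and none of all genes. The median log2FC of the 9 genes was 0.07, beside 0.01 for all genes tested. In TPM, both KO libraries lay above both Control libraries for 2 genes (Bcat1 and Got1) and below them for 3 (Got2, Gpt2 and Bcat2), beside 23.1% and 16.8% of all genes, and the groups overlapped for the other 4.

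**Figure D1:**
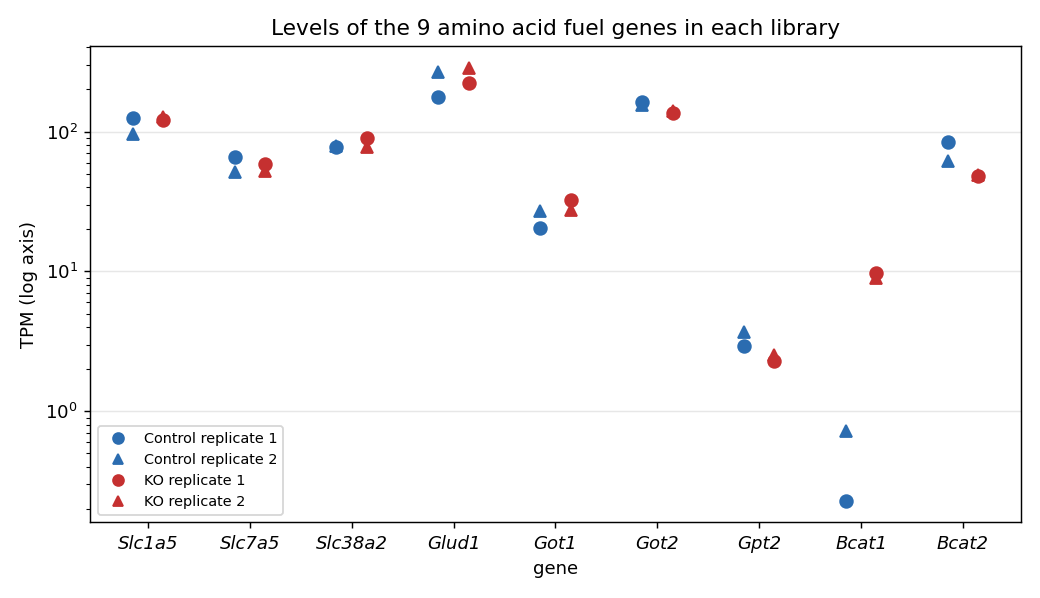
TPM on a log axis for the 9 genes, in which each library is a point (blue for Control, red for KO, a circle for replicate 1 and a triangle for replicate 2). Bcat1 is at 0.23 and 0.72 TPM in Control and at 9.75 and 8.97 TPM in KO, and the 4 points of every other gene lie within 2-fold of each other.

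The genes spanned a wide range of levels. In Control the order of mean TPM was Glud1, Got2, Slc1a5, Slc38a2, Bcat2, Slc7a5, Got1, Gpt2 and Bcat1. Slc38a2 and Bcat2 overlapped in this order, as did Bcat2 and Slc7a5, and the other neighbours did not overlap. In KO the order differed in 2 places, with Slc7a5 above Bcat2 and Bcat1 above Gpt2, and no neighbours overlapped. The mean TPM of Glud1 lay above that of 96.0% of the genes tested in Control and 96.6% in KO. Bcat1 stood above 8.17% of them in Control and 37.5% in KO.

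Among the carriers, no difference between the genotypes passed the test. Slc1a5 (ENSMUSG00000001918, GRCm38 chromosome 7, 16781340 to 16798274), which encodes ASCT2, a sodium-dependent exchanger that brings glutamine into the cell, had 125 and 95.9 TPM in Control and 121 and 128 TPM in KO. Both KO values lay near the higher Control library. The log2FC was 0.13 (SE 0.127, adjusted p = 0.840, 95% interval -0.17 to 0.42).

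Slc7a5 (ENSMUSG00000040010, chromosome 8, 121881150 to 121907694) encodes LAT1, which imports leucine and other large neutral amino acids in exchange for glutamine. It had 66.1 and 51.4 TPM in Control and 58.7 and 52.1 TPM in KO, so that both KO libraries lay between the Control libraries. The log2FC was -0.16 (SE 0.139, adjusted p = 0.797, interval -0.48 to 0.17). Its partner Slc3a2, the heavy chain that carries LAT1 to the cell surface, was more abundant in each library, with 2.08 and 2.32 times the TPM of Slc7a5 in Control and 1.98 and 2.20 times in KO.

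Slc38a2 (ENSMUSG00000022462, chromosome 15, 96687392 to 96699730) encodes SNAT2, a sodium-coupled carrier of glutamine and alanine known to be induced when amino acids run short. Its values were 77.2 and 78.8 TPM in Control and 89.9 and 77.5 TPM in KO. KO replicate 2 fell within the range of Control, and the log2FC was 0.07 (SE 0.105, adjusted p = 0.917, interval -0.17 to 0.32).

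Glud1 (ENSMUSG00000021794, chromosome 14, 34310727 to 34345265), the mitochondrial enzyme that turns glutamate into α-ketoglutarate and ammonia, was the most abundant of the genes. It had 177 and 268 TPM in Control and 223 and 286 TPM in KO, with overlapping groups. The log2FC was 0.17 (SE 0.0986, adjusted p = 0.596, interval -0.05 to 0.40). The spread in TPM was wider than in CPM, which was 213 and 206 in Control and 231 and 245 in KO, while the effective length that RSEM gave to Glud1 ran from 1055 to 1656 bases between libraries. Of its distinct 50-base stretches, 6.49% were shared with other gene models, among them the pseudogene Glud-ps.

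The aspartate aminotransferases pass the amino group of glutamate to oxaloacetate, and both are part of the malate-aspartate shuttle, which moves reducing equivalents into mitochondria. Got1 (ENSMUSG00000025190, chromosome 19, 43499752 to 43524605), the cytosolic form, had 20.6 and 27.1 TPM in Control and 32.3 and 27.3 TPM in KO. Control replicate 2 and KO replicate 2 were almost level, and the log2FC was 0.21 (SE 0.242, adjusted p = 0.875, interval -0.35 to 0.77).

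Got2 (ENSMUSG00000031672, chromosome 8, 95864134 to 95888547), the mitochondrial form, had 162 and 155 TPM in Control and 135 and 139 TPM in KO. The KO libraries lay below both Control libraries by more than the spread within either group, but the log2FC of -0.22 (SE 0.0999, interval -0.45 to 0.01) did not pass the test (adjusted p = 0.500). Got2 shared 16.8% of its distinct 50-base stretches with the pseudogene Got2-ps1, and RSEM's posterior SD for the split of these reads was at most 0.025% of its count. Got2 had 7.85 and 5.73 times the TPM of Got1 in Control and 4.19 and 5.10 times in KO. This ratio did not overlap between the genotypes, but the gap between 5.73 and 5.10 was smaller than the spread within either group. The ratio was not tested. The sum of Got1, Got2 and Gpt2 was 185 and 186 TPM in Control and 170 and 169 TPM in KO.

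Gpt2 (ENSMUSG00000031700, chromosome 8, 85492576 to 85527560), the mitochondrial alanine aminotransferase, was scarce, with 2.95 and 3.67 TPM in Control and 2.29 and 2.53 TPM in KO. Its 122 to 210 counts per library gave a wide interval. The log2FC was -0.38 (SE 0.486, adjusted p = 0.896, interval -1.50 to 0.75), and its interval was the widest among the 8 genes that did not pass.

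**Figure D2:**
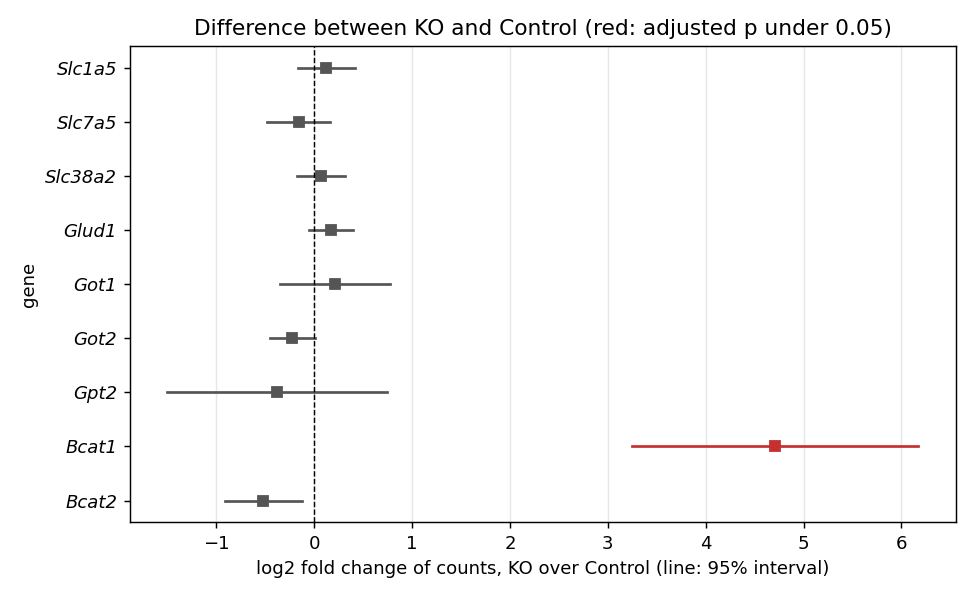
Log2FC of counts, KO over Control (squares), with its 95% interval (lines) for the 9 genes, red where the adjusted p was under 0.05. Bcat1 lies at 4.71 with an interval of 3.25 to 6.17, and all other estimates lie between -0.52 and 0.21.

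Bcat1 (ENSMUSG00000030268, chromosome 6, 144993835 to 145076184), the cytosolic branched-chain aminotransferase, rose in KO. It had 0.23 and 0.72 TPM in Control and 9.75 and 8.97 TPM in KO, which came from 8 and 10 counts in Control and 345 and 388 counts in KO. Both Control libraries held few counts, and the KO libraries were close to each other and far above them. RSEM's own 95% intervals were 0.676 to 2.95 and 0.883 to 3.09 TPM in Control, above the values listed there, and 9.06 to 13.3 and 7.90 to 11.7 TPM in KO. The level of Bcat1 in Control, with its rank and its share beside Bcat2, is thus uncertain, although the intervals of the groups do not overlap. In CPM the values were 0.389 and 0.429 in Control and 10.1 and 11.4 in KO. The mean went from 0.475 ± 0.346 to 9.36 ± 0.552 TPM (SD, n = 2), and the fit gave a log2FC of 4.71 (SE 0.632, adjusted p = 0.0214, interval 3.25 to 6.17), a 26.1-fold rise with an interval of 9.50 to 71.9. None of its 9408 distinct 50-base stretches occurred in another gene model. The study's table of differentially expressed genes from these libraries also holds Bcat1, so the call is not independent evidence.

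The call was lost when either KO library was left out and held when either Control library was left out, while the estimate changed little. Without KO replicate 1 the log2FC of Bcat1 was 4.80 and without KO replicate 2 it was 4.61. Without Control replicate 1 it was 4.63 and without Control replicate 2 it was 4.80. In each of these fits the lone library of a group is assumed to vary like those of the other group. Over all genes, too, fewer were called without a KO library and more without a Control library, so the lost call is not particular to Bcat1. RSEM's effective length for Bcat1 was 2301 and 820 bases in Control and 1462 and 1774 bases in KO, and when the fit took these lengths as an offset, log2FC was 4.36 (adjusted p = 0.250). The rise went along with those of the B lineage and mast cell lists, whose part in it was not tested. In bulk RNA, more cells of a type that expresses Bcat1 and more Bcat1 RNA per cell cannot be told apart.

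Bcat2 (ENSMUSG00000030826, chromosome 7, 45570153 to 45589711), the mitochondrial form, had 84.8 and 61.8 TPM in Control and 48.4 and 49.1 TPM in KO. Both KO libraries lay below both Control libraries, which were themselves apart. The log2FC was -0.52 (SE 0.171, unadjusted p = 0.0165, interval -0.91 to -0.12), but it did not pass over all genes (adjusted p = 0.369). DESeq2 gave the same estimate with an adjusted p of 0.0155. Bcat2 remained the more abundant of the pair in every library. Bcat1 made up 0.270% and 1.15% of their summed TPM in Control and 16.8% and 15.4% in KO. The sum itself was 85.0 and 62.5 TPM in Control and 58.1 TPM in both KO libraries, so that the gain of Bcat1 was smaller than the difference of Bcat2 in TPM.

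**Figure D3:**
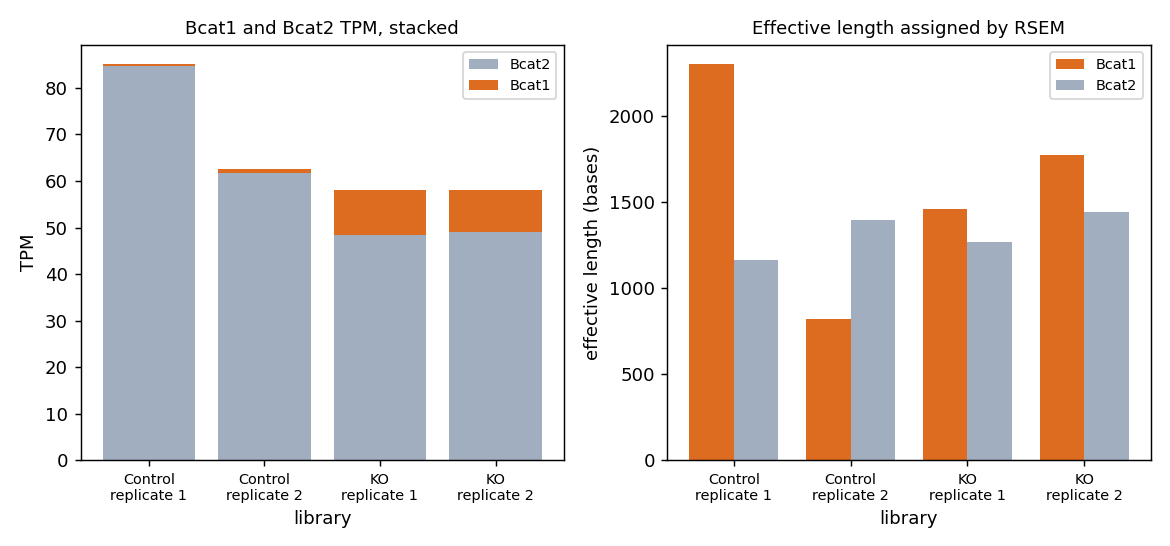
Left, TPM of Bcat2 (grey) and Bcat1 (orange) stacked in each library on a linear axis from 0. Right, the effective length in bases that RSEM gave to each gene. Bcat1 is a thin layer in Control and 16.8% and 15.4% of the stack in KO, and its effective length ranges from 820 to 2301 bases.

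RefSeq (GRCm38.p6) gave 9 start sites for 7 of the 9 genes, and Slc1a5 and Slc7a5 were not among them. The 250 bases before the start are shown for Bcat1 and Bcat2, the pair whose shares of RNA shifted. Bcat1 and Bcat2 each have a further start in the RefSeq table that is not printed, and counts per gene cannot tell which start was used. Capitals mark matches on either strand to TATAAA, the TATA box core, and to CCAAT, the CCAAT box. The Bcat1 stretch is chr6:145076158-145076407 on the minus strand and the Bcat2 stretch is chr7:45569903-45570152 on the plus strand.
Bcat1: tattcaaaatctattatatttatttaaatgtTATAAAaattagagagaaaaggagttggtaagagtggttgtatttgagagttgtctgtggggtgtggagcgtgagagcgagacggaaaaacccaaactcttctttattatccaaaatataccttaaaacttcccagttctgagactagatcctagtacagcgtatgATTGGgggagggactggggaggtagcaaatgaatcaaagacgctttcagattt
Bcat2: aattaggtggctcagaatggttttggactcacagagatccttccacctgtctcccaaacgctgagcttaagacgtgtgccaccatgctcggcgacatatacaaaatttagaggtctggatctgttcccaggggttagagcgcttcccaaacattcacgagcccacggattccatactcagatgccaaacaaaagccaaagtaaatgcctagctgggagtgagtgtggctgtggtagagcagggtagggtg

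The Bcat1 stretch holds TATAAA with its first base 219 bases before the start and CCAAT, on the opposite strand, 53 bases before it. Over 32851 RefSeq promoters, 12.4% held TATAAA and 33.8% held CCAAT in the same 250 bases. Neither motif occurred in the Bcat2 stretch, and the matches marked do not overlap. The Bcat1 stretch had 37.6% G or C and 5 CpG pairs, and the Bcat2 stretch 50.4% and 7, beside a median of 6 CpG pairs over all promoters. Searched on both strands, CACGTG, the E-box bound by MYC, was found before none of the 9 starts (6.02% of all promoters), and TGATGCAA, a form of the element bound by ATF4, was found before that of Got1 alone (0.791% of all promoters). A match describes these letters and is not a site shown to be bound.

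The tested genes whose TPM followed Bcat1 most closely over the 4 libraries were Lef1, Filip1l and St6gal1, at distances of 0.669, 0.677 and 0.749 on the log2(TPM + 1) scale. Lef1, a transcription factor of the Wnt pathway, had 0.81 and 1.22 TPM in Control and 9.45 and 8.99 TPM in KO. St6gal1, a sialyltransferase, had 0.52 and 0.43 TPM in Control and 7.21 and 13.1 TPM in KO. Filip1l had 0.51 and 0.89 TPM in Control and 7.94 and 5.90 TPM in KO. All 3 were themselves called higher by edgeR (adjusted p = 0.0221 for Lef1, 0.0377 for Filip1l and 0.0132 for St6gal1). They were chosen for their likeness to Bcat1 in these same libraries, so the calls largely follow from the choice and are not separate evidence.

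Genes around the 9 were counted in lists for the pathway. Of 118 further genes tested, 0 were called higher and 1 lower, beside 0.451% and 0.212% of all genes. At an unadjusted p under 0.05 there were 4 higher and 8 lower, beside 5.81% and 4.61% of all genes. DESeq2 called 3 higher and 7 lower, beside 628 and 519 of all 14635 genes. The same values over all genes stand beside the counts per list given below. The median log2FC of the 118 genes was -0.04. The gene called lower was Slc38a5 (ENSMUSG00000031170, chromosome X, 8271133 to 8280179), which encodes SNAT5, a carrier of glutamine, serine and histidine. It had 34.2 and 23.1 CPM in Control and 6.57 and 6.40 in KO. In TPM it had 29.2 and 19.8 in Control and 10.7 and 13.6 in KO. Both scales put the KO libraries below the Control libraries, but by different amounts.

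The log2FC of Slc38a5 was -2.15 (SE 0.314, adjusted p = 0.0299, interval -2.88 to -1.43). Its effective length was 1613 and 1606 bases in Control and 867 and 656 bases in KO, and when the fit took these lengths as an offset, log2FC was -1.03 (adjusted p = 0.558). Leaving out KO replicate 1 or KO replicate 2 also ended the call, at an adjusted p of 0.145 and 0.0986, with log2FC at -2.16 and -2.14. The call held without Control replicate 1 (log2FC -1.85, adjusted p = 0.0181) or Control replicate 2 (-2.39, adjusted p = 0.00133). The erythroid list moved the same way, and its part in this result was not tested.

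**Figure D4:**
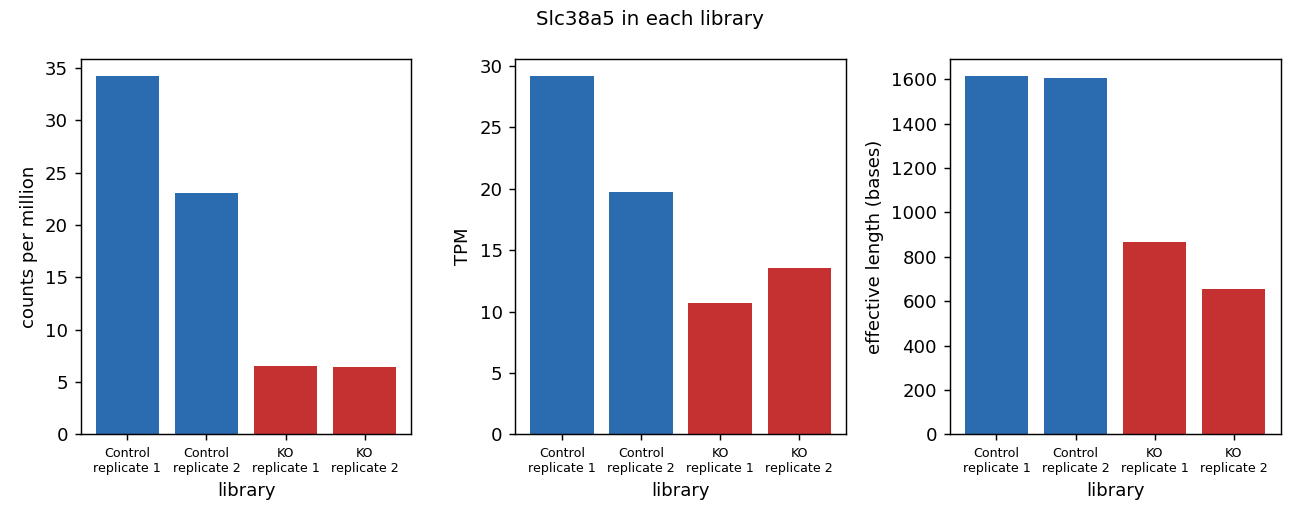
Slc38a5 in each library as CPM, TPM and effective length in bases (linear axes from 0, blue Control, red KO). CPM falls from 34.2 and 23.1 to 6.57 and 6.40, TPM from 29.2 and 19.8 to 10.7 and 13.6, and the effective length is 867 and 656 bases in KO.

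The other carriers, 14 of 15 tested, had a median log2FC of 0.05. At an unadjusted p under 0.05, 2 of them were higher and 1 lower, and DESeq2 called the same numbers. Slc38a1, which encodes SNAT1, the main relative of SNAT2 in glutamine uptake, had 48.3 and 45.8 TPM in Control and 83.0 and 72.1 TPM in KO. These groups were well apart, and the log2FC was 0.58 (SE 0.0978, interval 0.36 to 0.81), which missed the threshold (adjusted p = 0.0522). It passed under 4 of 12 alternatives, which were DESeq2 (adjusted p = 8.33e-10), no filter (0.0053) and leaving out Control replicate 1 (0.00835) or Control replicate 2 (0.0324), while the adjusted p reached 0.402 with limma. It was named after its values were seen. Slc38a1 reached 0.626 and 0.581 times the TPM of Slc38a2 in Control and 0.923 and 0.930 times in KO, while the sum of Slc38a1, Slc38a2 and Slc38a5 was 155 and 144 TPM in Control and 184 and 163 TPM in KO. Slc38a3 was not tested, since its only counts were 15 in KO replicate 2.

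Of 11 other glutamine and glutamate enzymes tested, none was called, with 0 higher and 3 lower at an unadjusted p under 0.05, while DESeq2 called 2 lower. Asns, asparagine synthetase, which uses glutamine as its nitrogen donor, had 57.4 and 47.7 TPM in Control and 32.4 and 28.4 TPM in KO (log2FC -0.79, SE 0.193, adjusted p = 0.215, interval -1.23 to -0.34). The groups did not overlap, with KO lower, which held for 16.8% of all genes tested. Oat, which links ornithine to glutamate, had a log2FC of -0.34 (SE 0.127, adjusted p = 0.428). Glul, glutamine synthetase, had 175 and 241 TPM in Control and 169 and 179 TPM in KO, with overlapping groups (log2FC -0.34, SE 0.139, adjusted p = 0.460, interval -0.66 to -0.02).

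The 10 glutamine amidotransferases, which use the amide nitrogen of glutamine for nucleotides and other products, included none that was called. At an unadjusted p under 0.05, 2 were higher and 0 lower, and DESeq2 called 1 higher. Qrsl1, a subunit of the mitochondrial glutamyl-tRNA amidotransferase, had 8.69 and 8.88 TPM in Control and 17.0 and 18.1 TPM in KO (log2FC 0.98, SE 0.316, adjusted p = 0.360). Ctps2, a CTP synthase, had a log2FC of 0.68 (SE 0.245, adjusted p = 0.413).

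Downstream of BCAT1 and BCAT2, the 24 genes of branched-chain keto acid oxidation had 11 positive and 13 negative estimates, with a median of -0.09 and none called (1 was lower at an unadjusted p under 0.05, and DESeq2 called 1 lower). Acadsb, the dehydrogenase of the isoleucine branch, had a log2FC of 0.50 (SE 0.231, adjusted p = 0.512). Bckdha, a subunit of the dehydrogenase that commits the keto acids to oxidation, had 55.4 and 62.1 TPM in Control and 57.0 and 48.8 TPM in KO. Its groups overlapped, and the log2FC was -0.19 (adjusted p = 0.762, interval -0.56 to 0.17).

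The 5 partners of Got1 and Got2 in the malate-aspartate shuttle had the smallest median absolute log2FC of the 8 lists, 0.06. Their median log2FC was 0.03, none was called by edgeR, DESeq2 or limma, and none had an unadjusted p under 0.05. Mdh2, mitochondrial malate dehydrogenase, had a log2FC of -0.10 (SE 0.0997, adjusted p = 0.848, interval -0.33 to 0.13) and Slc25a12, an aspartate-glutamate carrier, of 0.06 (SE 0.134, adjusted p = 0.958). Of the tricarboxylic acid cycle and anaplerosis genes, 17 of 18 were tested and none was called (1 was lower at an unadjusted p under 0.05, and DESeq2 called 1 lower). Cs, citrate synthase, had 120 and 116 TPM in Control and 107 and 98.8 TPM in KO (log2FC -0.24, SE 0.0981, adjusted p = 0.460). Dlst, a subunit of the α-ketoglutarate dehydrogenase complex, had a log2FC of -0.23 (adjusted p = 0.527), with 121 and 123 TPM in Control and 120 and 118 TPM in KO.

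**Figure D5:**
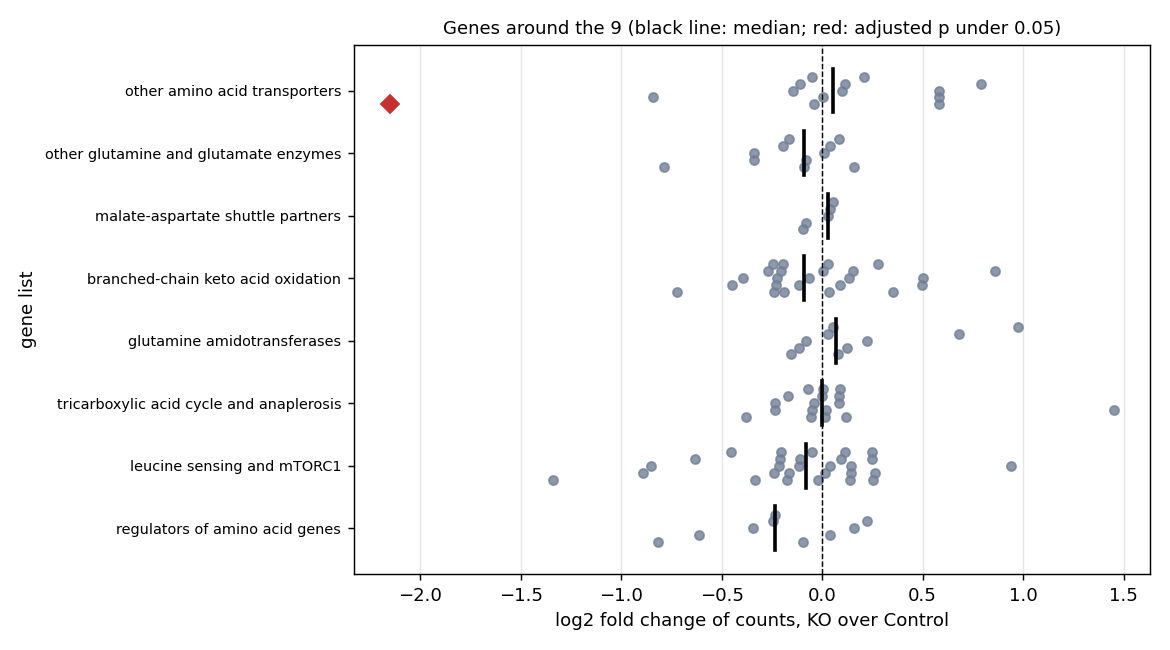
Log2FC of counts, KO over Control, for each tested gene of the 8 lists around the 9 genes (grey points), with the median of each list as a black line. The red diamond is Slc38a5 at -2.15, the only gene called among the 118, and the medians lie between -0.24 and 0.07.

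Leucine brought in by LAT1 is sensed by Sestrin proteins and passed on to the kinase complex mTORC1 at the lysosome. Of the 28 genes of this list, none was called, with 0 higher and 2 lower at an unadjusted p under 0.05 and the same count with DESeq2. Lamtor4, part of the lysosomal scaffold of mTORC1, had 95.9 and 84.8 TPM in Control and 65.6 and 57.8 TPM in KO (log2FC -0.63, SE 0.205, adjusted p = 0.360). Sesn2, which encodes a leucine sensor and is itself known as a target of ATF4, had 6.47 and 7.67 TPM in Control and 3.75 and 4.30 TPM in KO (log2FC -0.85, SE 0.330, adjusted p = 0.440). In neither gene did the groups overlap. Of the 28 genes, 4 lay higher and 6 lower in KO without overlap in TPM, beside 23.1% and 16.8% of all genes.

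Of the regulators of amino acid genes, 9 gene models of 11 were tested and none was called by edgeR, DESeq2 or limma, with none at an unadjusted p under 0.05. Myc, which drives glutamine use in many growing cells, had 300.4 and 230.2 TPM in Control and 236 and 211 TPM in KO (log2FC -0.25, SE 0.111, adjusted p = 0.501). Atf4, the transcription factor of the amino acid response, had 138 and 200.4 TPM in Control and 148 and 128 TPM in KO, with overlapping groups (log2FC -0.35, SE 0.188, adjusted p = 0.574). The median over the regulators was -0.24, with 3 positive and 6 negative estimates.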

How the data were processed

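Bulk RNA-seq of sorted mouse bone marrow cells was analysed in 2 Control and 2 KO libraries, grouped by their labels. Per the labels, libraries were directional and made from polyadenylated RNA. The submitters' notes name STAR, RSEM and the mm10 build. The sources used here give no versions, annotation or strand setting for them. The unit tested was the deposited expected count per gene, an estimate by RSEM that the authors did not normalize. The authors' files also give TPM, used here for levels, and effective lengths and posterior counts. The isoforms that RSEM assigns to a gene set its effective length and therefore its TPM. Counts are not corrected for that length, so a count fold change is not free of differences in isoform length. Symbols and positions came from GENCODE M21, which named 55141 of 55401 models.

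Expected counts were rounded and fitted with edgeR 4.0.16 (quasi-likelihood test, robust, TMM factors 0.985 to 1.01) in R 4.3.3, with genotype as the only term. The filter was filterByExpr with a minimum count of 10. Tests were two-sided, with Benjamini-Hochberg adjustment over all genes tested, and the script was tested on simulated data. Each SE was the absolute log2FC divided by the square root of the F statistic of the quasi-likelihood test. The 95% intervals of the fit were built from this SE, so neither is independent of the p-value. An exact permutation test of 2 against 2 cannot go below p = 0.333, so p-values rest on spread pooled over genes. Alternatives used DESeq2 1.42.0 and limma 3.58.1, other scalings and filters, effective lengths, posterior mean counts, a replicate block and leaving out each library. Sequence shared between gene models was counted in stretches of 50 bases.

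The genes and all lists were chosen with earlier results of these data known. Named genes were the 9 genes, Cpt1a, the called genes of each list (at most 4) or else the 2 with the smallest p, and the 3 genes nearest to Bcat1. Slc3a2, Slc38a1, Glul, Bckdha and the marker genes named were added after their values were seen. Some genes that the rule names are not reported here.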

Additional observations from a re-analysis of the deposited data

How the results depend on the processing

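Bcat1 stayed positive under all 12 alternatives (log2 fold change 2.83 to 4.80) and was called under 7. It was called neither with effective lengths from RSEM as an offset nor with limma at either pseudocount (4.36 and, for log2(TPM + 1) and log2(TPM + 0.1), 2.83 and 4.18, adjusted p = 0.250, 0.273 and 0.351), where the count of the 9 genes called higher was 0. Leaving out 1 library put that count between 0 and 1. DESeq2 called 1 of the 9 lower (Bcat2, adjusted p = 0.0155). Leaving out 1 library put Slc7a5 between -0.31 and 0.025, Got1 between -0.0095 and 0.48 and Slc38a2 between -0.028 and 0.17, so that their direction turned close to 0, without Control replicate 1 for Slc7a5 and Got1 and without KO replicate 1 for Slc38a2. The other 99 values of the 9 genes under alternatives kept their direction and their side of the threshold.

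Among all genes, DESeq2 called 628 higher and 519 lower (598 and 334 at the study's threshold of an unadjusted p under 0.05 and over 2-fold), no filter 111 and 85, effective lengths 3 and 1, and limma 0 and 0 at both pseudocounts. Without 1 library the counts ran from 24 to 238 higher and from 18 to 144 lower. Of the pathway genes, DESeq2 called 3 higher and 7 lower and no filter 1 higher, whereas effective lengths and limma called 0 lower. Without 1 library, 0 to 4 were called higher and 0 to 4 lower. The causes were not tested.

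With the replicate block, 62 genes were higher and 36 lower, Bcat1 was called (adjusted p = 0.0284) and no call among the 9 or the pathway genes changed. The deviations of libraries with number 1 had a correlation of -0.0239 across genes, so the numbers were not taken to pair the libraries. Bcat1 had 8 and 10 counts in Control, which limits the precision of its fold change, and intervals cover only the spread between these samples.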

Other observations

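The chromosomal neighbourhood of Bcat1 was read after its values were seen. Within 200 kb of the gene, 6 other gene models were tested and also passed a floor on TPM, and none of these was called. The nearest, Lrmp, which encodes a membrane protein of lymphoid cells, had 106 and 110 TPM in Control and 176 and 160 TPM in KO (log2FC 0.60, SE 0.109, adjusted p = 0.0739, interval 0.35 to 0.85). Its groups did not overlap, with KO higher, which held for 23.1% of all genes tested. Etfrf1, a regulator of the electron transfer flavoprotein, had a log2FC of -0.51 (adjusted p = 0.718, interval -1.37 to 0.35).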
